A study of Homo sapiens with 12 samples.

Results

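LXR alpha, the liver X receptor encoded by NR1H3, was followed together with 9 of its known target genes that move or make sterols, fatty acids and phospholipids. The 10 genes were NR1H3, ABCA1, ABCG1, MYLIP, PLTP, LPCAT3, SREBF1, SCD, APOE and APOC1, found by gene name among the 36866 genes of the table. They were chosen with the honokiol responses of these libraries already known, so those responses are given here as a description with no p-value per member, and nothing is read from the counts of members called on them. THP-1 and U-937, established human cell lines labelled as acute myeloid leukemia, were cultured for 24 h with honokiol, a small molecule from magnolia bark, or with 0.1% DMSO as the vehicle. Poly(A) RNA was sequenced in 3 libraries for each of the 4 groups of line and treatment. The labels give every library of both lines, controls included, the genotype "Complex karyotype". They list honokiol at 20 and 35 μM without saying which line received which, so line and dose cannot be told apart where the responses of the lines are set side by side. Each line stands for 1 donor, and no label says that the 3 libraries of a group came from separate cultures.

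LXR alpha is a nuclear receptor that binds oxysterols, the oxidized forms of cholesterol, and sits on DNA as a pair with a retinoid X receptor. In macrophages it switches on genes that carry cholesterol out of the cell, load it onto apolipoproteins, remodel membrane phospholipids and drive fatty acid synthesis. NR1H3 itself is among its targets in human macrophages. The pair prefers a DR4 element, which is a direct repeat of the half-site AGGTCA with 4 bases between the copies.

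The sequences are shown because the data concern genes of a receptor that binds DNA at such elements, and they set no member apart. Promoters in the RefSeq table for GRCh38.p14, running from 250 bases before a start to 50 bases after it, were found for 9 of the 10 genes, all but ABCG1, and numbered 15. The motif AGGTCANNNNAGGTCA was searched on both strands with up to 3 mismatches in its 12 fixed positions. It matched 3 of these 15 promoters, in ABCA1, PLTP and APOC1, and 18.6% of all 35116 promoters of this length held a match, a share near that of the members. With up to 2 mismatches it matched ABCA1 among the members and 2.34% of all promoters. The ABCA1 element lies 69 to 54 bases before the start, at chr9:104928209-104928224 on the strand opposite to the gene, and the APOC1 element 134 to 119 bases before it, at chr19:44914538-44914553, also on the opposite strand. The APOC1 start lies inside the gene as the files bound it, and so does the start to which the PLTP matches belong. The PLTP matches lie at chr20:45911173-45911188 on the strand of the gene and at chr20:45911191-45911206 on the other strand. Each element is written 5′ to 3′ on its own strand, with its half-sites in capitals and its spacer in lower case.
ABCA1 element: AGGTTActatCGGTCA
APOC1 element: GGGTCAggtgGGGTCC
PLTP element, strand of the gene: GGGGCAaagaAGGCCA
PLTP element, opposite strand: AGGTCCggaaTGGTGA
The ABCA1 promoter is printed for the 250 bases before the start, chr9:104928156-104928405 on the minus strand, since it held the closest match. It is read toward the gene, with the element in capitals.
ABCA1 promoter: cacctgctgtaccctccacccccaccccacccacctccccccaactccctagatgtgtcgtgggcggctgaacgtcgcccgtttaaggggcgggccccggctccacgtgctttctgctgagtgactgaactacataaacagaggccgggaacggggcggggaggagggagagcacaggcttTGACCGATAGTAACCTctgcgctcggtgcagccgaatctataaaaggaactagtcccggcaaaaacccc

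The libraries held between 57406966 and 75065752 estimated counts, of which a fragment was mostly worth 4. The mitochondrial share of the counts was 13.7% for THP-1 and 12.6% for U-937 in the DMSO libraries numbered 1 and lay between 5.61% and 7.55% elsewhere. Values without them are given for ABCA1, APOE, APOC1, NR1H3, SCD and ABCG1. Levels are FPKM, the authors' value per length of transcript and size of library, given as the mean ± SD of 3 libraries. Fold changes are log2 values of TMM-normalized counts from edgeR's quasi-likelihood fit with their standard errors (SE), for genes that reached an FPKM of 0.5 in 3 or more of the libraries fitted. A gene was called where the Benjamini-Hochberg adjusted p-value over all genes tested was under 0.05 and the log2 fold change over 1 in size. The markers of monocytic lines summed to an FPKM of 1185 to 1384 in THP-1 cells with DMSO and of 726 to 976 in U-937 cells with DMSO, and MPO, a granule enzyme of myeloid cells, was under 0.5 in U-937 cells. CD3E, EPCAM and ALB, markers of T cells, epithelium and liver, were under 0.5 in both lines. In such bulk RNA, fewer cells that express a gene and less of its RNA per cell cannot be told apart.

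With honokiol, 6 of the 10 members had all 3 THP-1 libraries above the 3 DMSO libraries and 0 had them below, where 13% of the 14600 genes tested lay above and 7.62% below. The 6 were NR1H3, the cholesterol exporters ABCA1 and ABCG1, the lipid transfer protein PLTP and the apolipoproteins APOE and APOC1. In U-937 cells 6 of the 7 members tested lay above, against 16.7% of the 13726 genes tested, and 7.5% of the genes lay below. These were NR1H3, PLTP and APOE as in THP-1, and LPCAT3, SREBF1 and SCD, while MYLIP overlapped. APOE passed the FPKM limit there only through its honokiol libraries, so it had to lie above. Of the 3 members under the FPKM limit there, ABCA1 and APOC1 lay above and ABCG1 overlapped. The threshold was met by 1 of the 10 members in THP-1 cells, ABCG1, where 0.0411% of all genes tested met it. In U-937 cells it was met by 1 of the 7 members past the FPKM limit, PLTP, where 0.0947% of all genes met it. ABCG1 kept its call in 2 of the 6 fits that left out 1 library, PLTP in 1 of 6, and without DMSO replicate 1 of both lines the calls were 0 for THP-1 and 1 for U-937. The members had been chosen on these contrasts, so nothing is read from the counts or from the medians of the members. The median log2 fold change of the members was 0.62 in THP-1 cells, where it was -0.0011 over all genes tested, and 1.04 for the 7 members tested in U-937 cells, where it was 0.016 over all genes.

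**Figure D1:**
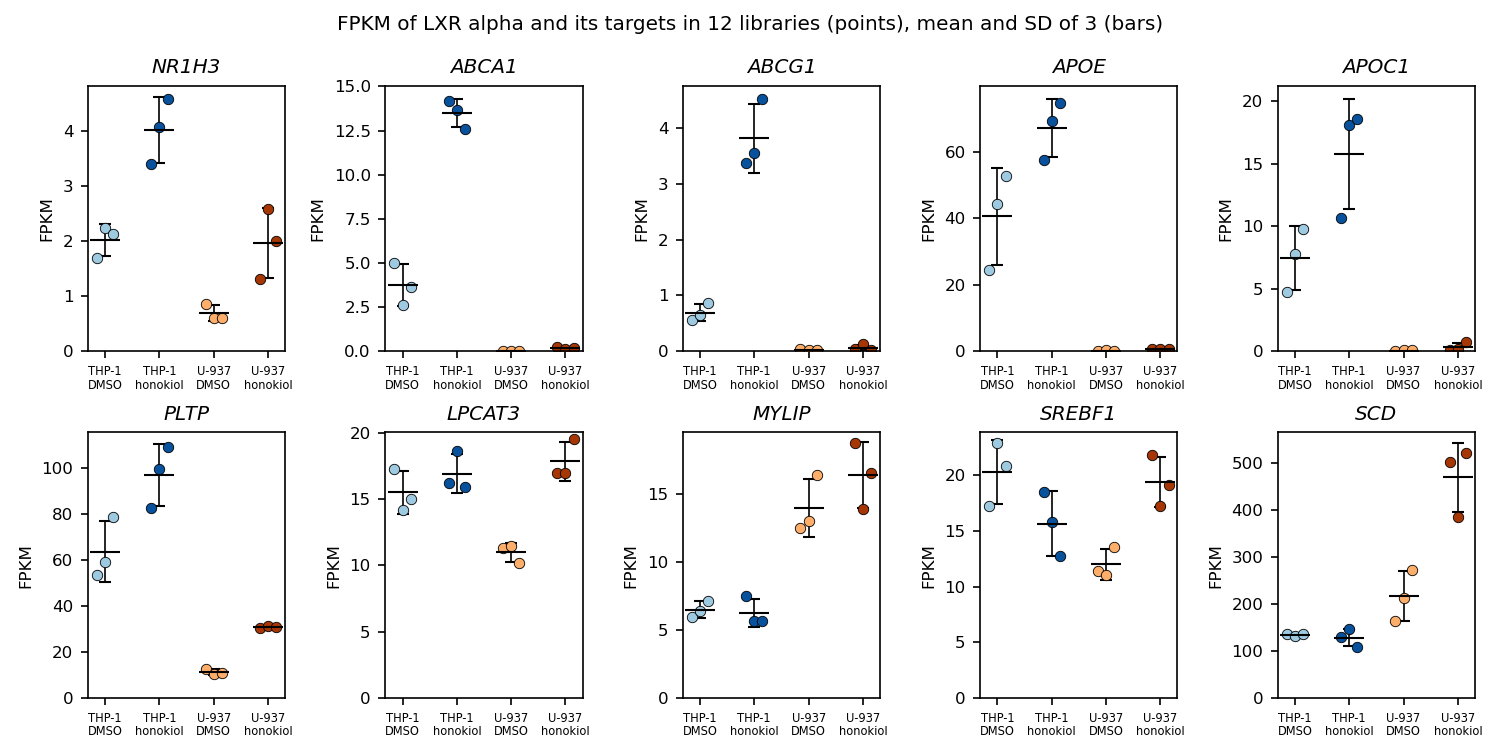
FPKM of the 10 genes (vertical axes, each from 0) in the 12 libraries, grouped by line and treatment on the horizontal axes; points are libraries, and bars are the mean and SD of 3. ABCA1 lies between 12.60 and 14.20 in the honokiol-treated THP-1 libraries and at 0.24 or less in every U-937 library, whereas SCD lies at 384.89 or more with honokiol in U-937 cells and at 146.37 or less in THP-1 cells.

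NR1H3 (ENSG00000025434, chr11:47248300-47268845, plus strand), the receptor itself, was a low transcript in both lines. Its FPKM in THP-1 cells was 1.69, 2.25 and 2.13 with DMSO and 3.40, 4.07 and 4.59 with honokiol. In U-937 cells it was 0.87, 0.61 and 0.61 with DMSO and 1.32, 2.59 and 2.0 with honokiol. Each honokiol library lay above each DMSO library of its line, and the honokiol libraries of U-937 spanned the range of the DMSO libraries of THP-1. The log2 fold change was 0.93 (SE 0.18) in THP-1 cells and 1.37 (SE 0.31) in U-937 cells, that is 1.90-fold and 2.59-fold. NR1H3 was highest among the DMSO libraries of U-937 in replicate 1, and the U-937 value was 1.59 without it. By mean level the order was 4.02 ± 0.597 in honokiol-treated THP-1, 2.02 ± 0.295 in DMSO-treated THP-1, 1.97 ± 0.636 in honokiol-treated U-937 and 0.697 ± 0.150 in DMSO-treated U-937, and the middle pair overlapped. An exon of NR1H3 overlaps ACP2, a lysosomal phosphatase gene on the opposite strand, and the counting is not stated to use strand. ACP2 had log2 fold changes of 0.23 (SE 0.18) and 0.59 (SE 0.37).

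The other receptors with which LXR alpha works or competes did not pass the test, and they are no members. NR1H2, which encodes the sister receptor LXR beta, stood at a log2 fold change of 0.34 (SE 0.17, edgeR adjusted p = 0.432) in THP-1 and of -0.06 (SE 0.22, adjusted p = 0.920) in U-937 cells. RXRA, a retinoid X receptor, had -0.45 (SE 0.28, adjusted p = 0.505) and -0.39 (SE 0.14, adjusted p = 0.235). RXRB had 0.30 (SE 0.19) and 0.04 (SE 0.16), and RXRG was at an FPKM of 0.1 or less in every library. Over the 13 receptor partners and co-regulators tested, the median was -0.07 in THP-1 cells and -0.06 in U-937 cells.

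ABCA1 and ABCG1 encode membrane pumps that pass cholesterol to apolipoproteins and to formed lipoprotein particles. The FPKM of ABCA1 (ENSG00000165029, chr9:104781006-104928155, minus strand) in THP-1 cells was 5.01, 2.65 and 3.64 with DMSO and 14.20, 13.69 and 12.60 with honokiol. ABCG1 (ENSG00000160179, chr21:42199689-42297244, plus strand) stood there at 0.56, 0.65 and 0.86 with DMSO and at 3.36, 3.54 and 4.52 with honokiol. The honokiol libraries lay far above the DMSO libraries for both pumps. The log2 fold changes, 1.77 (SE 0.26) for ABCA1 and 2.41 (SE 0.21) for ABCG1, were the largest of the members in THP-1 cells. ABCA1 was highest among the DMSO libraries in replicate 1, the one with the high mitochondrial share, and its log2 fold change was 2.09 without it.

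In U-937 cells both pumps were near the floor. The estimated counts of ABCA1 were 22, 48 and 33 in the DMSO libraries and 191, 107 and 171 in the honokiol libraries, an FPKM of 0.040 ± 0.010 and of 0.200 ± 0.053. Those of ABCG1 were 17, 9 and 11 without honokiol and 24, 54 and 15 under it. The honokiol libraries lay above the DMSO libraries for ABCA1 and overlapped them for ABCG1. Both were under the FPKM limit in all 6 U-937 libraries, and a fit without the limit gave 2.22 (SE 0.41) for ABCA1 and 1.27 (SE 0.71) for ABCG1. With honokiol, ABCA1 in each U-937 library still lay below its level in each THP-1 library.

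APOE and APOC1 lie side by side on chromosome 19 and encode apolipoproteins that take up lipid outside the cell. The FPKM of APOE (ENSG00000130203, chr19:44905791-44909393, plus strand) in THP-1 cells was 24.45, 44.42 and 52.74 with DMSO and 57.43, 69.12 and 74.77 with honokiol. APOC1 (ENSG00000130208, chr19:44914247-44919346, plus strand) stood there at 4.71, 7.77 and 9.79 with DMSO and at 10.66, 18.08 and 18.55 with honokiol. The honokiol libraries lay above the DMSO libraries for both genes, by a narrow gap at the lowest honokiol library. The log2 fold change was 0.69 (SE 0.24) for APOE and 1.04 (SE 0.29) for APOC1. Both genes were lowest in DMSO replicate 1 of THP-1, and without that library the values were 0.46 and 0.83. In U-937 cells the counts of APOE went from 40, 56 and 30 under DMSO to 114, 113 and 106 under honokiol, and those of APOC1 from 0, 10 and 8 to 14, 18 and 66. The honokiol libraries again lay above the DMSO libraries, at levels far under those of THP-1. APOE passed the FPKM limit in U-937 only through its honokiol libraries, so it had to differ there, and its log2 fold change was 1.42 (SE 0.35). APOC1 did not pass the limit, and the fit without the limit gave 2.53 (SE 1.10). AC011481.3, a transcript of unknown function, shares exon bases with both genes on the same strand, and its mean FPKM was 0.373 or less in every group.

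PLTP and LPCAT3 act on phospholipids: PLTP moves them between lipoproteins, and LPCAT3 adds polyunsaturated fatty acids to lysophospholipids in membranes. The FPKM of PLTP (ENSG00000100979, chr20:45898621-45912155, minus strand) in THP-1 cells was 53.25, 58.86 and 78.37 with DMSO and 82.33, 99.33 and 108.74 with honokiol. In U-937 cells PLTP stood at 12.76, 10.50 and 10.64 with DMSO and at 30.53, 31.25 and 30.86 with honokiol. The groups were apart in both lines, and the honokiol libraries of U-937 lay below the DMSO libraries of THP-1. The log2 fold change was 0.56 (SE 0.17) in THP-1 cells and 1.35 (SE 0.15) in U-937 cells. PLTP overlaps CTSA, a lysosomal protease gene on the opposite strand, which had 0.06 (SE 0.15) and 0.21 (SE 0.14).

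LPCAT3 (ENSG00000111684, chr12:6976185-7018477, minus strand) had an FPKM in U-937 cells of 11.34, 11.45 and 10.18 with DMSO and of 16.97, 16.98 and 19.55 with honokiol. In THP-1 cells it stood at 17.30, 14.19 and 15.01 and then at 16.19, 18.64 and 15.93. The groups were apart in U-937 cells (log2 fold change 0.61, SE 0.14) and overlapped in THP-1 cells (0.06, SE 0.16). With honokiol the mean levels of the lines were close, 17.8 ± 1.49 in U-937 and 16.9 ± 1.5 in THP-1. EMG1, a ribosome assembly gene on the opposite strand that overlaps LPCAT3, had 0.10 (SE 0.17) in THP-1 cells and -0.12 (SE 0.16) in U-937 cells.

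SREBF1 encodes SREBP-1, the transcription factor of fatty acid synthesis, and SCD, one of its targets, encodes the desaturase that makes oleate. SREBF1 (ENSG00000072310, chr17:17810399-17837011, minus strand) had an FPKM in U-937 cells of 11.38, 11.02 and 13.59 with DMSO and of 21.79, 17.26 and 19.16 with honokiol. In THP-1 cells it stood at 17.20, 22.93 and 20.82 and then at 18.46, 15.83 and 12.71. The U-937 groups were apart, and the THP-1 groups overlapped with the lower mean under honokiol. The log2 fold change was 0.61 (SE 0.14) in U-937 cells and -0.42 (SE 0.17) in THP-1 cells. RAI1, which overlaps SREBF1 on the opposite strand, had -0.42 (SE 0.14) in U-937 cells and 0.04 (SE 0.17) in THP-1 cells, the reverse order.

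SCD (ENSG00000099194, chr10:100347233-100364826, plus strand) was the most abundant member per length in both lines. In U-937 cells its FPKM was 164.25, 212.60 and 270.96 with DMSO and 501.94, 384.89 and 520.51 with honokiol. In THP-1 cells SCD stood at 135.23, 131.65 and 135.60 and then at 128.54, 146.37 and 109.09. The U-937 groups did not meet, whereas the THP-1 honokiol libraries lay on both sides of the DMSO libraries. The log2 fold change was 1.04 (SE 0.20) in U-937 cells and -0.12 (SE 0.15) in THP-1 cells. SCD was lowest among the DMSO libraries of U-937 in replicate 1, and the U-937 value was 0.90 without it.

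MYLIP (ENSG00000007944, chr6:16129086-16148248, plus strand) encodes IDOL, a ubiquitin ligase. Its FPKM in THP-1 cells was 5.95, 6.36 and 7.14 with DMSO and 7.46, 5.68 and 5.62 with honokiol. In U-937 cells it was 12.46, 13.02 and 16.39 with DMSO and 18.76, 13.90 and 16.52 with honokiol. The treatments overlapped in both lines, with log2 fold changes of -0.10 (SE 0.17) and 0.15 (SE 0.17).

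**Figure D2:**
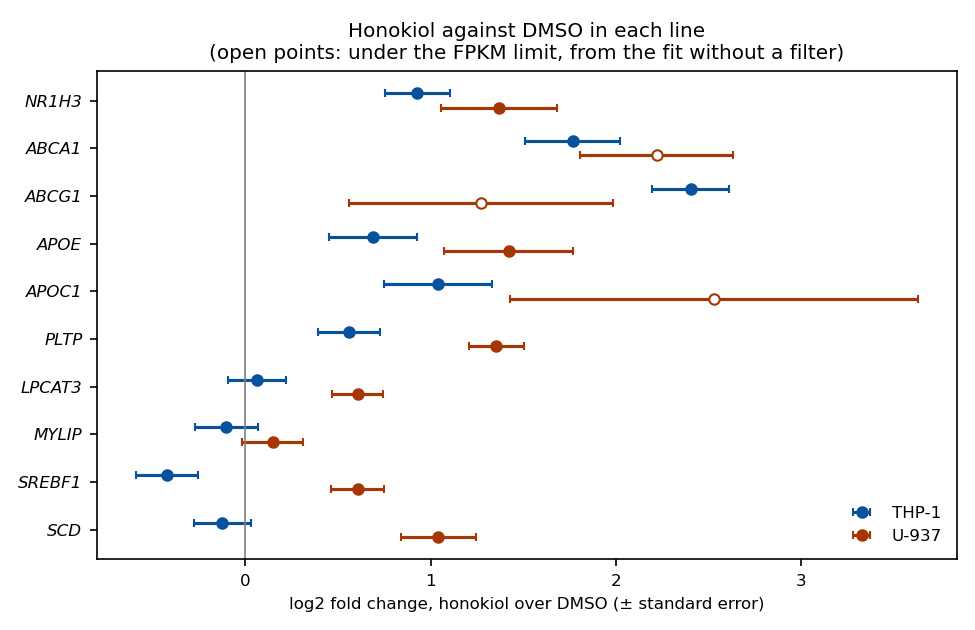
Log2 fold change of honokiol over DMSO (horizontal axis) for the 10 genes (vertical axis) in THP-1 (blue) and U-937 (red), with bars of 1 standard error; open points are genes under the FPKM limit, from the fit without it. SREBF1 is at -0.42 in THP-1 and 0.61 in U-937, and SCD at -0.12 and 1.04, while NR1H3 is above 0 in both.

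Set side by side, the log2 fold change of U-937 minus that of THP-1 was 1.16 (SE 0.26) for SCD, 1.02 (SE 0.22) for SREBF1, 0.79 (SE 0.22) for PLTP and 0.53 (SE 0.20) for LPCAT3, from 1 fit of all 12 libraries. For NR1H3 it was 0.43 (SE 0.37), about as large as its error, and for MYLIP 0.24 (SE 0.23). Of the 10 members 0 met the threshold for the difference, where 0.111% of the 16283 genes tested met it. An unadjusted p-value under 0.05 was reached by 4 members, where 9.37% of all genes reached it, and DESeq2 called 2. As the responses had chosen the members, nothing is read from these counts either. For ABCA1, APOE and APOC1 the values of 0.45 (SE 0.40), 0.72 (SE 0.35) and 1.45 (SE 0.94) rest on few counts in U-937 cells. So does that of ABCG1, -1.11 (SE 0.61), which ran from -1.78 without U-937 honokiol replicate 2 to -0.67 without U-937 DMSO replicate 1. On the scale of log2(FPKM + 0.5), where such low levels weigh little, ABCA1, APOE and APOC1 were at -1.38, -0.09 and -0.49, of the opposite sign, and ABCG1 at -1.74.

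The lines were compared with a test on the levels of the DMSO-treated cells. The choice of the members did not rest on this comparison, but it was made with earlier results of these data known. These libraries also enter the responses above, so the p-values are not free of the choice. For all 10 members the 3 U-937 libraries lay apart from the 3 THP-1 libraries, 8 below and 2 above, where 56.7% of all genes tested were apart (27.7% above and 29% below). The threshold was met by 7 of the 10 members, against 34% of the 16283 genes tested, and 1 of the 7 was higher and 6 lower in U-937 cells, against 14.4% and 19.7%. Of these ABCA1, ABCG1, APOE and APOC1 passed the FPKM limit only through THP-1 and were under it in every DMSO-treated U-937 library, so they had to differ. The other 6 members were past the limit in all 12 libraries. NR1H3 was lower in U-937 by a log2 fold change of -1.54 (SE 0.27, edgeR adjusted p = 0.000386), and PLTP by -2.52 (SE 0.16, adjusted p = 2.51e-07). MYLIP was higher by 1.06 (SE 0.17, adjusted p = 0.000189), the one member called in that direction. SREBF1 (-0.80, SE 0.16, adjusted p = 0.000987), LPCAT3 (-0.55, SE 0.14, adjusted p = 0.00705) and SCD (0.63, SE 0.18, adjusted p = 0.0117) passed the limit on the p-value but not that on the fold.

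For ABCA1, ABCG1, APOE and APOC1, which could pass the limit only by differing, the values are a description. The log2 fold change of U-937 over THP-1 was -7.32 (SE 0.31) for APOE and -6.90 (SE 0.79) for APOC1, and it was -6.63 (SE 0.35) for ABCA1 and -4.70 (SE 0.48) for ABCG1. The mean FPKM of APOE was 40.5 ± 14.5 in THP-1 cells and 0.253 ± 0.067 in U-937. NR1H2, the sister receptor, went the other way from NR1H3, at 3.39 ± 0.687 for THP-1 and 8.89 ± 1.90 for U-937 (log2 fold change 1.35, SE 0.21, adjusted p = 0.000166).

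**Figure D3:**
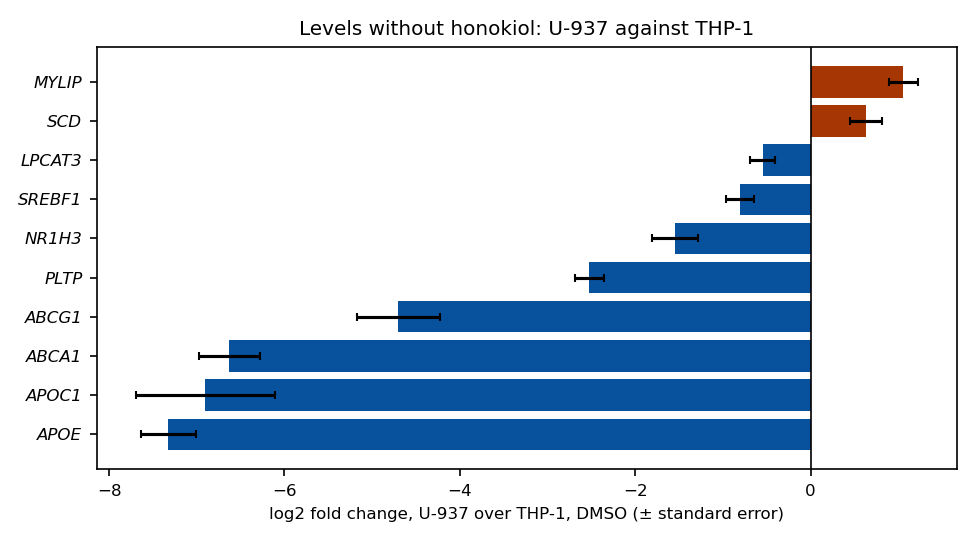
Log2 fold change of U-937 over THP-1 in the DMSO-treated cells (horizontal axis) for the 10 genes (vertical axis), with bars of 1 standard error. MYLIP and SCD are higher in U-937, at 1.06 and 0.63, and the other 8 are lower, down to -7.32 for APOE.

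Over the 12 libraries the log2 levels of ABCA1 and ABCG1 correlated at r = 0.96, those of APOE and APOC1 at 0.99 and those of NR1H3 and PLTP at 0.93. MYLIP ran against ABCA1 (r = -0.90) and with SCD (0.89), and SREBF1 and LPCAT3 correlated at 0.59. The libraries share line and treatment, so these values describe the 4 group levels more than 12 separate points. Among 12236 genes with a mean FPKM of at least 1, those closest to NR1H3 were CACNA2D4 (r = 0.970), DDIT3 (0.969) and MAP3K8 (0.961). DDIT3, the stress-response factor CHOP, had a mean FPKM of 13.1 ± 3.10 and 34.8 ± 16.4 in THP-1 cells and of 4.97 ± 0.453 and 14.7 ± 3.87 in U-937 cells. Closest to ABCA1 were GBP4 (0.991), GPA33 (0.989) and CD1D (0.984), and closest to ABCG1 were SLC2A14 (0.984), NBR2 (0.973) and S100A16 (0.968). CD1D, which presents lipid antigens, had 4.85 ± 1.09 and 13.9 ± 2.19 in THP-1 cells and 0.73 or less in every U-937 library.

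The lists of related genes hold 104 genes in the table. They too were chosen with earlier results of these data known, so nothing is read from their counts and medians here and below. By edgeR's quasi-likelihood test 0 of the 84 tested in THP-1 cells and 0 of the 74 tested in U-937 cells were called with honokiol. An unadjusted p-value under 0.05 was reached by 21 of the 84 (19 higher, 2 lower), where 13.1% of all genes reached it, and by 19 of the 74 (12 higher, 7 lower), where 16.7% did. DESeq2 called 8 and 3 of them, all higher. The other known LXR targets had a median log2 fold change of 0.82 over the 6 tested in THP-1 cells, 3 of them with all honokiol libraries above, and of 0.59 over the 4 tested in U-937 cells, again 3 of them above, where 13% and 16.7% of all genes tested lay above. In THP-1 cells PNPLA3, a lipid droplet hydrolase, had 1.12 (SE 0.15, adjusted p = 0.0607) and MERTK, a receptor for the uptake of dying cells, 1.57 (SE 0.38, adjusted p = 0.185). In U-937 cells TMEM135, a peroxisomal protein, had 1.46 (SE 0.24, adjusted p = 0.0685) and MERTK 0.74 (SE 0.21, adjusted p = 0.159).

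The PPAR receptors, fatty acid sensors that also pair with retinoid X receptors, and their targets had a median of 1.54 over 8 genes in THP-1 cells (6 with all honokiol libraries above) and of 0.71 over 5 genes in U-937 cells (4 above), against the same 13% and 16.7% of all genes. This list was also chosen with earlier results known, so these counts and medians are a description. PDK4, a brake on glucose oxidation, is among the 6 in THP-1 cells. It passed the FPKM limit there only through its honokiol libraries, so it had to differ. Its log2 fold change was 4.14 (SE 0.59) there, and it was at 0.01 or less in U-937 cells. FABP4, a fatty acid carrier, had 4.43 (SE 1.13, edgeR adjusted p = 0.214) for THP-1 and 4.49 (SE 1.5, adjusted p = 0.212) for U-937. Its honokiol libraries were widely spread, from an FPKM of 2.39 to 32.13 in THP-1 and of 5.44 to 47.86 in U-937 cells. CYP27A1, which makes the LXR ligand 27-hydroxycholesterol, had 1.58 in THP-1 cells (SE 0.35, edgeR adjusted p = 0.168) and was under the FPKM limit in all but 1 of the U-937 libraries.

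SREBP-2, the sister factor of SREBP-1, drives cholesterol synthesis and uptake, and the genes of these routes had a median of 0.07 in THP-1 and of 0.15 in U-937 cells over 18 genes each. Among them STARD4, a sterol carrier, had 0.60 (SE 0.19) and 0.92 (SE 0.23). Fatty acid synthesis had a median of -0.08 over 11 genes in THP-1 cells and of 0.24 over 9 genes in U-937 cells, 5 of them with all honokiol libraries above and 1 below, against 16.7% and 7.5% of all genes. That one was FASN, the fatty acid synthase, at -0.44 (SE 0.15, edgeR adjusted p = 0.215), while ACACA, the carboxylase before it, had 0.71 (SE 0.19, adjusted p = 0.154).

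The lysophospholipid acyltransferases other than LPCAT3 had medians of -0.08 for THP-1 and -0.19 for U-937, and the other ABCA and ABCG transporters of -0.03 and -0.24. Genes of cholesterol handling in the cell had medians of 0.25 and 0.32, with SOAT1, which esterifies cholesterol, at 0.62 (SE 0.17) in U-937 cells. The macrophage markers, a list of 6, summed to an FPKM of 13.4 to 27.1 with DMSO and of 22.3 to 59.1 with honokiol in THP-1 cells, and of 8.03 to 38.7 and 13.6 to 45.4 in U-937 cells. MRC1, which defines mature macrophages, was under 0.5 in all 12 libraries. CD163, another defining marker, was at 0.09 or less in the THP-1 libraries, between 0.25 and 1.36 in U-937 cells with DMSO and between 0.32 and 0.49 in them with honokiol. The part of cell state in the member levels was not tested.

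**Figure D4:**
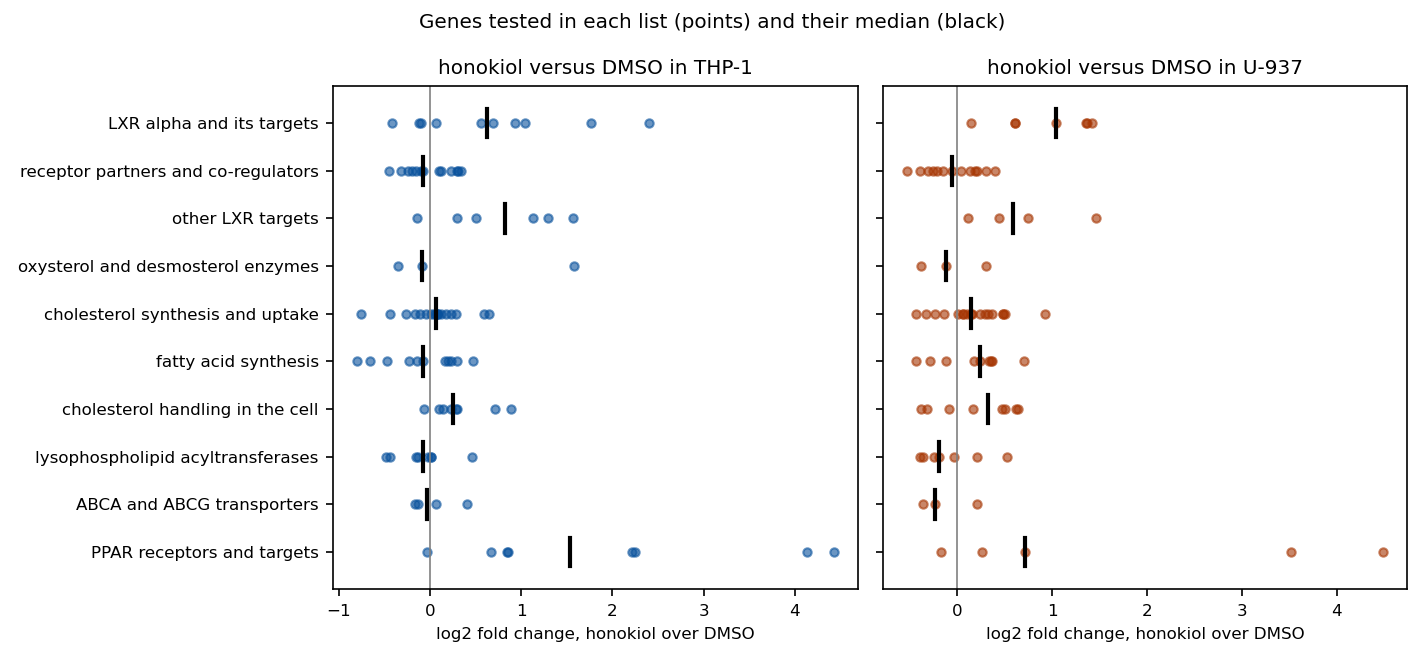
Log2 fold change of honokiol over DMSO (horizontal axes) of the genes tested in each list (rows, points) with the median in black, for THP-1 on the left and U-937 on the right. The medians of LXR alpha and its targets, which were chosen on these contrasts, are 0.62 and 1.04. Those of the PPAR list are 1.54 and 0.71, and those of cholesterol synthesis 0.07 and 0.15. The other lists were also chosen with earlier results of these data known.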

How the data were processed

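mRNA was sequenced in 12 libraries, 3 for each of 2 lines and 2 treatments. The authors deposited, for each of 36866 genes and each library, an FPKM value, which corrects for the length of the transcript and the size of the library, and an estimated count, not normalized. The submitters' processing notes name HISAT2 2.0, StringTie 1.3.0 and Bowtie 0.12.2 with no roles. They also name the mouse build mm8, but of the 36866 genes 35762 were found in GENCODE 29 (human GRCh38) and 35719 overlapped their entry on the same chromosome and strand, so coordinates are given as GRCh38. Whether strand was used in counting is not given in the sources used here. Values of 4 counts (17264) outnumbered those of 3 (6764) and 5 (4016), so precision is overstated by the counts.

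The 10 members, the lists and the tests were chosen with earlier results of these data known. Genes that reached an FPKM of 0.5 in 3 or more libraries of the fit were tested by the quasi-likelihood test of edgeR 4.0.16 (R 4.3.3) with TMM factors and Benjamini-Hochberg adjustment, within each line for honokiol and in 1 fit of 12 libraries for the lines and for the difference of responses. Standard errors are the log2 fold change over the root of F. The fit was tested on simulated data. The study states the criterion of an adjusted p-value under 0.05 and a log2 fold change over 1. Alternatives were limma 3.58.1 on log2(FPKM + 0.5) or log2(FPKM + 1), DESeq2 1.42.0, other filters and scalings, a replicate block and each library left out; added after the data were seen were counts divided by 4 and a fit without either DMSO replicate 1. P-values measure only the spread between libraries, which may be technical. All 10 members are named. Of each list, the genes that could be named were those called and the 2 with the largest absolute log2 fold change in each line, at a mean FPKM of at least 1 and without overlap between treatments, with NR1H2, RXRA, RXRB and RXRG always. The 3 genes closest to NR1H3, ABCA1 and ABCG1 have the highest Pearson correlation of log2(FPKM + 0.5). MPO, SCARB1 and the genes overlapping members were named after their values were seen. Protein sequences were not analysed here.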

Additional observations from a re-analysis of the deposited data

Results flagged for a closer look

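SCARB1, a receptor for high density lipoprotein in the list of cholesterol handling, differed in direction between the lines. All 3 honokiol libraries lay above the DMSO libraries in THP-1 cells (log2 fold change 0.23, SE 0.13) and all 3 lay below them in U-937 cells (-0.31, SE 0.12). The difference of the responses was -0.552 (SE 0.16, edgeR adjusted p = 0.332), so it failed the correction.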

How the results depend on the processing

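With honokiol the number of members called was small, and it moved with the method. In THP-1 cells it was 1, and it was 0 with limma on log2(FPKM + 0.5) or log2(FPKM + 1), without a filter, and without either DMSO replicate 1, 3 with DESeq2, 2 in one fit of the 12 libraries and 0 to 1 with each library left out. ABCG1 kept its call in 2 of these 6 fits, without DMSO replicate 3 or honokiol replicate 1, and lost it without each of the others. In U-937 cells it was 1, and it was 4 with DESeq2, 5 in one fit of the 12 libraries, where all 10 members were tested, and 0 to 1 with each library left out. PLTP kept its call in 1 of these 6 fits, without DMSO replicate 1. With a replicate block the counts were 0 and 0. The same-numbered libraries did not deviate together (correlations of -0.19 to 0.11 in THP-1 and -0.14 to -0.11 in U-937), so the numbers were not taken to pair samples. Libraries with different numbers correlated at -0.12 to 0.26 in THP-1 and at -0.11 to 0.24 in U-937. Whether samples pair in another order was not tested. The difference of responses was called for 0 members, 1 with limma at either pseudocount and 2 with DESeq2. The DMSO levels of the lines were called for 7 members, 4 with limma on log2(FPKM + 1), where low levels weigh less, and 6 to 7 with each library left out, MYLIP being lost without U-937 DMSO replicate 3 (log2 fold change 0.96). Related genes called numbered 0 in THP-1 cells, 8 with DESeq2 and 0 to 3 with each library left out (3 without honokiol replicate 1). They numbered 0 in U-937 cells, 3 with DESeq2 and 3 in one fit of the 12 libraries, and 0 for the difference, 1 with DESeq2. DR4 elements were found in 3 member genes, and in 1 with 2 mismatches allowed. Over all genes the calls ran from 0 to 250 in THP-1 cells (6 as reported), 0 to 223 in U-937 cells (13), 0 to 183 for the difference (18) and 3115 to 8610 for the DMSO levels (5542). With counts divided by 4, the members called stayed at 1 in THP-1, 1 in U-937, 0 for the difference and 7 for DMSO levels. Over all genes that fit called 5, 10, 0 and 5631, in the same order. No called value changed sign under these alternatives. Unless stated above, the cause was not tested. Depth limits ABCA1, ABCG1, APOE and APOC1 in U-937 cells, where a library held at most 191 counts of any of them.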
